A study of Oryza sativa with 216 samples.

Results

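OsMADS22, OsMADS47 and OsMADS55 are the rice MADS-box genes of the SVP type, named after the Arabidopsis gene Short vegetative phase. They were followed through 1 probe set each, 3 chosen by gene name out of 57258 probe sets. The values cover flag leaves of 210 recombinant inbred lines (RILs), with 1 array each, and of the parents Zhenshan 97 and Minghui 63, with 3 arrays each. Both parents are indica varieties, and the RILs were derived from their cross by single-seed descent, so a line is a fixed mosaic of both parental genomes. All plants were untreated and field-grown in Wuhan, and leaves were taken in the morning on the day the panicle emerged. The RNA of a RIL was a mixture from 2 plantings, and its array cannot show the spread between them, while the parental arrays are labelled as biological replicates. Heading day differs between lines, so the date of sampling can differ between arrays.

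MADS-box proteins are transcription factors that bind DNA as dimers. In Arabidopsis, SVP holds back flowering by repressing FT, the gene of the mobile florigen protein, and rice has the FT homologue Hd3a. The rice genes are better known for other roles, since OsMADS47, OsMADS22 and OsMADS55 restrain responses to the growth hormone brassinosteroid, and ectopic OsMADS22 disturbs the spikelet meristem. Their levels in a leaf at heading are thus of interest beside those of florigen genes, of the AP1/FUL-like and SOC1-like MADS-box genes that act with or below florigen, and of brassinosteroid genes.

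By the gene table used, the 3 probe sets belong to LOC4330805 on chromosome 2 (OsMADS22), LOC4331872 on chromosome 3 (OsMADS47) and LOC4340495 on chromosome 6 (OsMADS55), and each gene has 1 probe set in it. By its suffix, the OsMADS22 probe set can match transcripts of more than one gene. Probe sequences were not used here, so this and the match of the probes to either parental allele were not tested. The values as deposited are on the log2 scale of RMA, on which 1 unit is a doubling of signal. They are compared only within a probe set, since probes differ in brightness at the same transcript level.

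The arrays agreed closely with the median profile of the RILs, with a correlation over probe sets of 0.976 to 0.985 in Zhenshan 97, 0.984 to 0.990 in Minghui 63 and 0.982 to 0.994 in the RILs. The array medians ranged from 5.15 to 5.32. Of the markers chosen for the tissue, the leaf genes OsRBCS2, CAB2R, RCA and OsPORB had RIL medians of 14.41, 14.13, 14.64 and 11.98. The RIL medians of 14 floral organ MADS genes ran from 2.81 for OsMADS21 to 8.62 for OsMADS16, with OsMADS1 at 8.36. Levels of different probe sets cannot be set against each other, so these values do not measure the share of either tissue. In bulk leaf RNA, fewer cells of a type and less RNA per cell cannot be told apart.

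The parents were compared first, since they are the genotypes with replicates. OsMADS22 and OsMADS55 were both higher in Minghui 63 than in Zhenshan 97, and OsMADS47 showed no difference beyond its spread. OsMADS22 was at 11.55, 11.45 and 11.48 on the arrays of Zhenshan 97 and at 12.17, 12.40 and 12.02 on those of Minghui 63. The lowest array of Minghui 63 was above the highest of Zhenshan 97, and the Zhenshan 97 arrays lay within 0.1 of each other. The means were 11.49 ± 0.05 and 12.20 ± 0.19 (SD, n = 3 each), a difference of 0.71 (standard error 0.14, 95% interval 0.40 to 1.02, adjusted p = 0.0212 by limma), or 1.63-fold.

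OsMADS55 was at 10.76, 11.93 and 11.05 in Zhenshan 97 and at 12.68, 12.32 and 12.83 in Minghui 63. Here too the arrays did not overlap, but those of Zhenshan 97 were wider apart, with replicate 2 well above the other two. The means were 11.25 ± 0.61 and 12.61 ± 0.26 (SD, n = 3 each), a difference of 1.36 (standard error 0.29, 95% interval 0.70 to 2.02, adjusted p = 0.0323 by limma), or 2.57-fold.

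OsMADS47 was at 5.04, 5.11 and 7.23 in Zhenshan 97 and at 5.32, 5.44 and 4.90 in Minghui 63. A single array, Zhenshan 97 replicate 3, stood apart, and the other 5 covered a narrow range within which the parents overlapped. The difference was -0.57 (Minghui 63 minus Zhenshan 97, standard error 0.53, 95% interval -1.78 to 0.63, adjusted p = 0.684 by limma), and it became 0.14 without that array (adjusted p = 0.857). Whether OsMADS47, with a median of 4.95 over the RILs, stood above background was not assessed, since present calls were not used here.

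Over all probe sets, 5.31% passed the limma test, 2.86% higher and 2.46% lower in Minghui 63, and on 12.9% the Minghui 63 arrays were all above those of Zhenshan 97. With 3 arrays against 3, the exact two-sided permutation test gave p = 0.1 for OsMADS22 and OsMADS55, the smallest it allows, and p = 0.8 for OsMADS47. The calls of both genes rest on few arrays. That of OsMADS22 was lost without Zhenshan 97 replicate 1 (adjusted p = 0.0659 by limma) or 3 (0.0710) and without Minghui 63 replicate 1 (0.0977), while that of OsMADS55 was lost without Zhenshan 97 replicate 1 (adjusted p = 0.102) or 3 (0.114) and without Minghui 63 replicate 1 (0.128) or 3 (0.0868). The direction was the same in each of these fits.

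**Figure D1:**
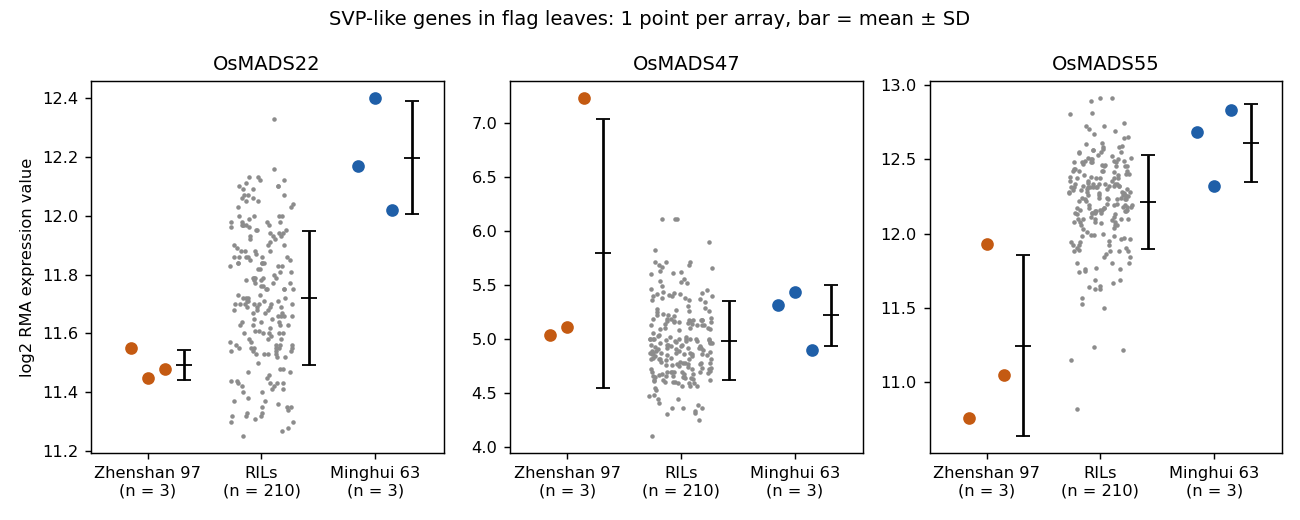
Log2 RMA expression values of OsMADS22, OsMADS47 and OsMADS55 (a panel each, with its own scale) in Zhenshan 97 (orange), the RILs (grey) and Minghui 63 (blue), 1 point per array, with the mean ± SD as a bar beside each group. The RILs lie between the parental means for most lines of OsMADS22 (81.9%) and OsMADS55 (91.4%), and the array of Zhenshan 97 at 7.23 for OsMADS47 is above every RIL.

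Some signs of leaf state also differed between the parents. The chlorophyll breakdown genes SGR, which starts removal of magnesium from chlorophyll, and NYC1, a chlorophyll b reductase, were both lower in Minghui 63 (SGR 9.91 in Zhenshan 97 and 8.20 in Minghui 63, NYC1 10.35 and 9.62, adjusted p = 0.00687 and 0.0384 by limma). The mean of these 2 measured members of a senescence list of 5 was 9.86 to 10.45 on the Zhenshan 97 arrays and 8.65 to 9.09 on those of Minghui 63. Of the 4 measured leaf genes, 0 passed (0 also at an unadjusted p under 0.05 by limma). Their median difference was 0.04 against 0.02 over all probe sets. The 3' minus 5' signal of the control probe sets, a sign of RNA integrity, was 0.56 to 0.68 and 0.63 to 0.80. The part of leaf state or RNA quality in the parental differences of OsMADS22 and OsMADS55 was not tested.

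Genes of the surrounding pathways differed in both directions between the parents. Of 19 measured photoperiod and florigen genes (a list of 27), 3 were higher and 3 lower in Minghui 63, with a median difference of 0.07 against 0.02 over all probe sets. The largest of these in size was Hd3a, at 11.74 in Zhenshan 97 and 8.50 in Minghui 63 (difference -3.24, adjusted p = 0.000138 by limma), in the direction opposite to OsMADS22 and OsMADS55. Of the 6 AP1/FUL-like and SOC1-like genes, OsMADS15, which helps to turn the meristem to the inflorescence state, was the single one to pass, at 8.55 and 11.57 (difference 3.02, adjusted p = 0.0236), and the median of the list was 0.34. Of 10 measured brassinosteroid genes (a list of 17), OsBRI1, the hormone's receptor kinase, was the single one to pass, at 8.54 in Zhenshan 97 against 9.97 in Minghui 63, which is 1.43 higher (standard error 0.19, adjusted p = 0.00324), and the median was 0.04. Of the 14 floral organ genes, OsMADS3 and OsMADS16 were higher and OsMADS1 lower in Minghui 63. The calls of OsMADS15, OsMADS3, OsMADS16 and NYC1 were lost without Minghui 63 replicate 1 (adjusted p = 0.0715, 0.0845, 0.102 and 0.143 by limma) and each also without at least 1 other array, such as Zhenshan 97 replicate 1 for OsMADS15 (0.0783), Zhenshan 97 replicate 3 for OsMADS3 (0.0625) and Minghui 63 replicate 3 for OsMADS16 (0.0726). That of NYC1 was lost on leaving out each of 5 of the 6 arrays, and those of Hd3a, OsBRI1, OsMADS1 and SGR held without any single array.

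Over the RILs the 3 genes were spread differently relative to the parents. OsMADS22 ranged from 11.25 to 12.33 with a median of 11.71 and an SD of 0.23, so the lines filled the space between the parents and went below it. Of the 210 lines, 31 (14.8%, exact 95% binomial interval 10.3% to 20.3%) lay below the lowest parental array and 0 above the highest, which allows a share of up to 1.74% (upper limit of the same interval). The share below, 14.8%, is to be read beside a median of 7.62% over all probe sets. A smaller share below was found on 67.2% of probe sets, so that of OsMADS22 does not stand apart. The SD over the RILs was 1.63 times that within the parents for OsMADS22, but 0.67 times for OsMADS55 and 0.406 times for OsMADS47. The parental SD of OsMADS47 includes the outlying Zhenshan 97 replicate 3, at 7.23. Of all probe sets, 69.5%, 83.5% and 87.8% had a lower SD over the RILs than OsMADS22, OsMADS55 and OsMADS47. The mean of 11.72 differed from the midpoint of the parents, 11.84, by -0.12 (95% interval -0.31 to 0.06, adjusted p = 0.492 by limma).

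OsMADS55 ranged from 10.82 to 12.91 with a median of 12.25 and an SD of 0.32, and its quartiles were 12.07 and 12.42. Most lines were thus in the upper part of the parental range, with a thin tail toward Zhenshan 97. No line was below the lowest parental array, and 3 (1.43%, interval 0.296% to 4.12%) were above the highest. The mean of 12.21 was 0.29 above the midpoint of 11.93 (standard error 0.13, 95% interval 0.03 to 0.54), which did not pass (adjusted p = 0.185 by limma, 0.0291 without Zhenshan 97 replicate 2). The lowest line, R089 at 10.82, was also the line with the third lowest OsMADS22, at 11.28.

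OsMADS47 ranged from 4.10 to 6.11 with a median of 4.95 and an SD of 0.37. Of the lines, 95 (45.2%, interval 38.4% to 52.2%) lay below the lowest parental array, the Minghui 63 one at 4.90, and 0 above the highest. Over all probe sets the median share of lines below the parental arrays was 7.62%. The mean of 4.99 was 0.52 below the midpoint of 5.51 (standard error 0.16, adjusted p = 0.0214 by limma, a test that 7.49% of probe sets passed and 4.21% passed downward). A two-sided permutation test over all arrays gave p = 0.00436 for this difference (adjusted p = 0.0131 over the 3 genes). The permutation took each parental array as a separate unit like a line, although these arrays are replicates of Zhenshan 97 and Minghui 63. Its p can thus be too small. The offset of OsMADS47 rests on Zhenshan 97 replicate 3, without which it fell to -0.16 (adjusted p = 0.676) and 23 lines lay above the parental arrays instead. It was also lost without Minghui 63 replicate 1 (-0.50, adjusted p = 0.0831) or replicate 2 (-0.47, adjusted p = 0.105). RIL arrays held RNA of mixed plantings and parental arrays are labelled as replicates, so genotype and the way of pooling cannot be told apart in any of these offsets.

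The high OsMADS47 value of Zhenshan 97 replicate 3 was not alone on that array. The probe set with the highest correlation with OsMADS47 over the RILs (r = 0.657, rho = 0.607), which has no name in the gene table, was at 5.69 on that array and at 3.48 and 3.47 on the other 2 of Zhenshan 97. In Minghui 63 it was at 3.61, 3.80 and 3.08, and its median over the RILs was 3.59. It was singled out after its values were seen, and whether it reads the same gene as the OsMADS47 probe set was not tested. On Zhenshan 97 replicate 3, 71 probe sets (0.124%) were at least 1.5 above both other arrays of the variety, against 347 on replicate 1 and 43 on replicate 2.

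The members were next compared with each other over the 210 lines, to see whether genes of one type vary together. OsMADS22 and OsMADS55, on chromosomes 2 and 6, were positively correlated, with r = 0.417 (rho = 0.374, permutation p = 1e-05, the smallest that 100000 resamples give, adjusted p = 3e-05 over the 3 pairs). The relation remained at 0.396 without the 2 lines farthest from the median and at 0.310 with 5 principal components of the RILs removed. OsMADS47 varied largely apart from both. Its r was 0.0962 with OsMADS22 (permutation p = 0.164, adjusted p = 0.164) and -0.141 with OsMADS55 (permutation p = 0.0417, adjusted p = 0.0625), and the latter passed as a rank correlation (rho = -0.168, adjusted p = 0.0226) and without its 2 extreme lines (r = -0.182, adjusted p = 0.0123). None of the 3 genes had separate clusters of lines by a normal mixture.

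**Figure D2:**
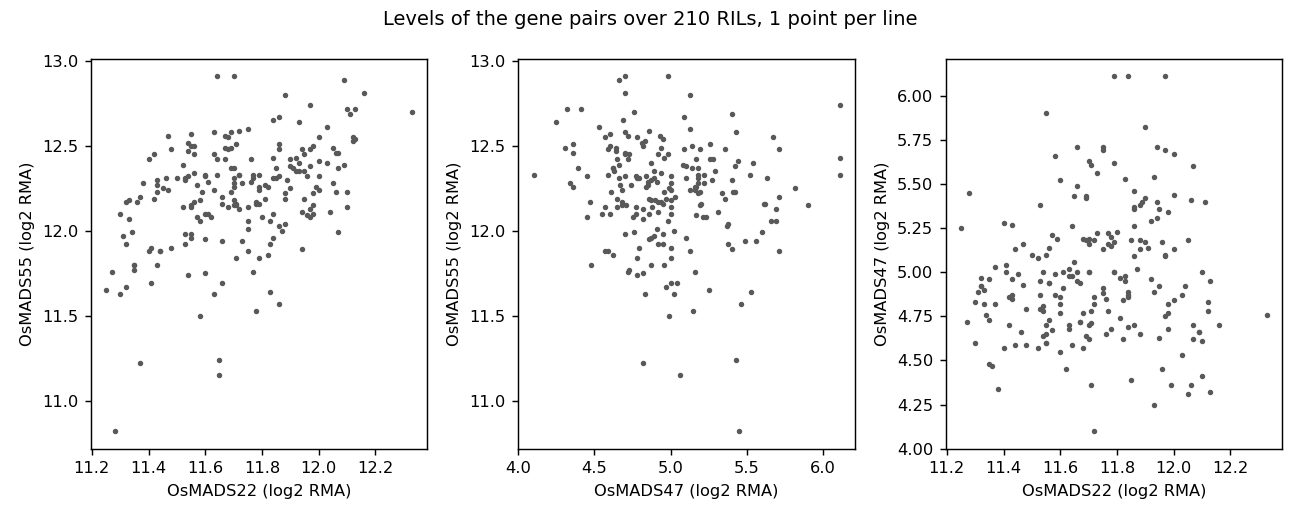
Log2 RMA expression values of each pair of genes over the 210 RILs, 1 point per line. OsMADS55 against OsMADS22 slopes upward (r = 0.417), and the panels with OsMADS47 show a weak slope (r = -0.141 with OsMADS55) or little slope (r = 0.0962 with OsMADS22).

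Flowering and clock genes were then set against each member over the RILs, 14 genes and 42 pairs in all. Ghd7, Hd1, Ghd8 and OsFTL1 had lines in 2 separate clusters and are given within clusters further on. Of the 30 pairs with the 10 other genes, 16 passed an adjusted p of 0.05 over the 42 pairs, 8 of them with OsMADS55, 5 with OsMADS22 and 3 with OsMADS47. Large shares of all probe sets were associated with the members too, by limma 27.1% with OsMADS22, 23.6% with OsMADS55 and 3.85% with OsMADS47, and the counts are to be read beside these. The shares were adjusted over all probe sets, a stricter rule than that over 42 pairs. By limma the pairs of OsMADS22 and OsMADS55 passed too. Those of OsMADS47, with OsMADS14, OsMADS15 and OsMFT1, did not (adjusted p = 0.0618, 0.0652 and 0.144 by limma).

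OsMADS55 had its strongest relations with a gene of each of the florigen and AP1/FUL groups. With OsMADS18, an AP1/FUL-like gene that promotes the floral transition, r was 0.578 (rho = 0.543). With the florigen gene Hd3a it was -0.475 (rho = -0.535). OsMFT1, a PEBP family protein of the MFT type, had r = 0.405 (rho = 0.315), and OsMADS50, the SOC1-like activator of flowering, r = 0.341 (rho = 0.335). For all 4 the permutation p was 1e-05 and the adjusted p 7e-05, and these 4 were the pairs that passed with 5 principal components removed, at 0.569, -0.335, 0.354 and 0.214 in the same order.

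OsMADS55 was also correlated with OsMADS14 (r = 0.272, rho = 0.318) and OsMADS15 (r = 0.259, rho = 0.230), both AP1/FUL-like. Among clock genes it was correlated with OsLHY, a morning factor (r = 0.248, rho = 0.293), and with OsPRR1, an evening factor (r = -0.253, rho = -0.195). Adjusted p values of these 4 were 0.00024, 0.000887, 0.00111 and 0.000966. None of the 4 passed with 5 components removed, and that with OsPRR1 came to 0.0149. With OsMADS56, the other SOC1-like gene, and with OsGI, r was 0.0746 and 0.0188.

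OsMADS22 shared 5 of these partners with the same signs and smaller values. Its r was -0.323 with Hd3a (rho = -0.322, permutation p = 1e-05, adjusted p = 7e-05), 0.237 with OsMFT1 and with OsLHY (rho = 0.203 and 0.264, adjusted p = 0.00162 for each), 0.209 with OsMADS14 (rho = 0.208, adjusted p = 0.00633) and -0.179 with OsPRR1 (rho = -0.159, adjusted p = 0.0228). With 5 components removed none of these passed, Hd3a being at -0.132 and OsPRR1 at 0.105. With the 3'/5' differences of the control probe sets removed, OsMADS14 (r = 0.127, adjusted p = 0.141) and OsPRR1 (r = -0.12, adjusted p = 0.171) did not pass either. Whether OsMADS22 and OsMADS55 differ in these correlations was not tested.

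OsMADS47 was negatively correlated with OsMADS14 (r = -0.206, adjusted p = 0.00734), OsMADS15 (r = -0.202, adjusted p = 0.00911) and OsMFT1 (r = -0.171, adjusted p = 0.0304), genes with which OsMADS55 was positively correlated. Its r with Hd3a was 0.124 (permutation p = 0.0723, adjusted p = 0.138). These 3 pairs fell short with 5 components removed, at -0.0665, -0.128 and -0.172, and OsMFT1 also with the 3'/5' differences removed (r = -0.154, adjusted p = 0.0629).

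**Figure D3:**
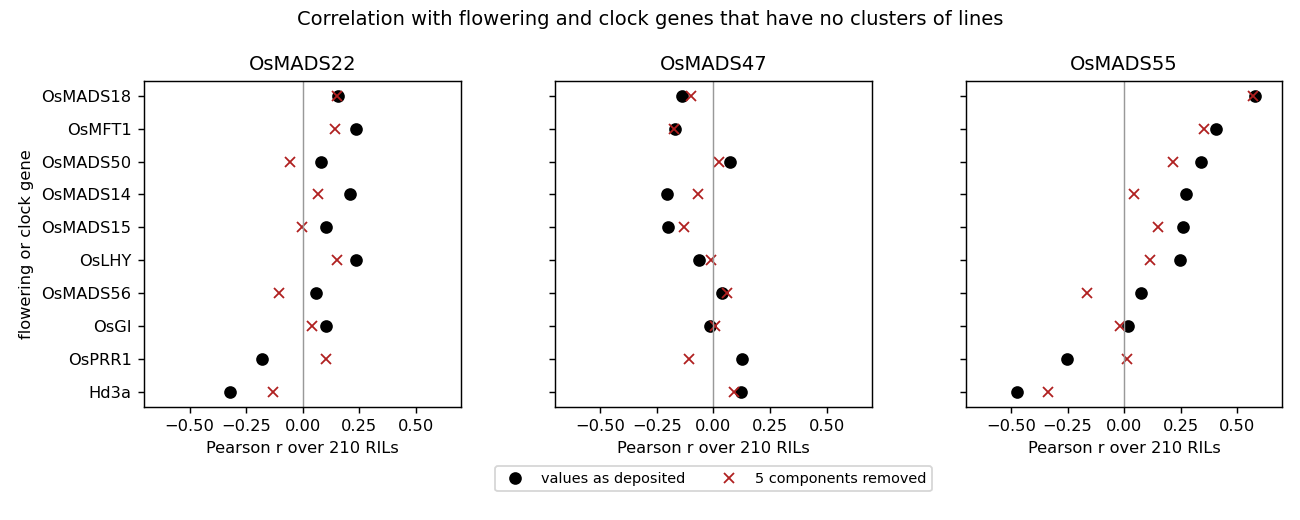
Pearson r over 210 RILs (horizontal axis) of OsMADS22, OsMADS47 and OsMADS55 (a panel each) with 10 flowering and clock genes (rows), for the values as deposited (black points) and with 5 principal components removed (red crosses). OsMADS55 spans the range from -0.475 (Hd3a) to 0.578 (OsMADS18), and its point for OsMADS18 is nearly unmoved by the removal (0.569).

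In the genes with 2 clusters of lines, correlations were computed within each cluster, 24 in all. Ghd7, a repressor of heading under long days, is missing from Zhenshan 97 by the study, and its low cluster, around 4.16, was not read. In its high cluster, around 5.47 and with 50.5% of the lines, r was 0.301 with OsMADS22 and 0.296 with OsMADS55 (permutation p = 0.0018 and 0.00204, adjusted p = 0.0163 each), and as rank correlations (rho = 0.261 and 0.233) neither passed, with adjusted p of 0.0589 and 0.0756. The study had drawn OsMADS55 as a target of Ghd7 from these same RILs, so the correlation of that pair is not independent evidence. Apart from the RILs, the study checked targets of Ghd7 by qPCR in a near-isogenic line of Zhenshan 97 with an introgressed segment. It reported a higher OsMADS55 transcript level in that line than in Zhenshan 97.

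Ghd8, a HAP3 subunit that represses heading under long days, was correlated with OsMADS55 in its high cluster, with 51.4% of the lines (r = -0.249, rho = -0.258, permutation p = 0.00898, adjusted p = 0.0431). OsFTL1, an FT-like gene, was negatively correlated with OsMADS47 in both clusters, at -0.291 in the low one (rho = -0.271, permutation p = 0.00184, adjusted p = 0.0163) and at -0.236 in the 99 lines of the high one (rho = -0.248, permutation p = 0.0188, adjusted p = 0.0752). With OsMADS55 it had r = 0.252 in the low cluster (rho = 0.177, permutation p = 0.0077, adjusted p = 0.0431), and 0.176 with the 3'/5' differences removed (adjusted p = 0.226). As rank correlations, those of Ghd8 and OsFTL1 did not pass either, with adjusted p of 0.0589 for Ghd8 with OsMADS55 and for OsFTL1 with OsMADS47, and 0.181 for OsFTL1 with OsMADS55. Within the clusters of Hd1, a CONSTANS-like gene, r of the 3 members lay between -0.147 and 0.117 and none passed (smallest permutation p = 0.127).

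The wider lists were counted by limma, with the adjustment over all probe sets. Of the 19 measured photoperiod and florigen genes, 10 were associated with OsMADS22, 10 with OsMADS55 and 2 with OsMADS47, in both directions for each member. The shares over all probe sets were 27.1%, 23.6% and 3.85% in the same order. The median r of the list was 0.0902, 0.0205 and 0.0398 with OsMADS22, OsMADS55 and OsMADS47, against -0.0472, -0.0384 and -0.00451 over all probe sets. Both OsMADS22 and OsMADS55 had positive values with OsGF14b, a 14-3-3 protein (r = 0.319 and 0.353), and with the pseudo-response regulator OsPRR95 (r = 0.276 and 0.348), and negative ones with OsPRR37, a repressor of heading (r = -0.263 and -0.241). OsGF14c, a 14-3-3 protein that binds florigen, had r = 0.326 with OsMADS47 and -0.235 with OsMADS55.

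Of the 6 AP1/FUL-like and SOC1-like genes, 4 were positively associated with OsMADS55 and 1 with OsMADS22. With OsMADS47 the number was 0 by limma (4 at an unadjusted p under 0.05), while OsMADS14 and OsMADS15 passed in the permutation tests above, which were adjusted over fewer pairs. The median r was 0.265, 0.093 and -0.146 with OsMADS55, OsMADS22 and OsMADS47. The shares of all probe sets associated in either direction were 23.6%, 27.1% and 3.85% in the same order, and the count of OsMADS22 does not exceed its share.

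Of the 10 measured brassinosteroid genes, 2 were associated with OsMADS22, 3 with OsMADS55 and 1 with OsMADS47. The receptor gene OsBRI1, higher in Minghui 63 as were OsMADS22 and OsMADS55, had r = 0.320 with OsMADS22 (rho = 0.306) and 0.404 with OsMADS55 (rho = 0.335). OsIBH1, a helix-loop-helix inhibitor of brassinosteroid responses, had r = 0.203 and 0.177. D11, which encodes a cytochrome P450 of hormone synthesis, had r = -0.208 with OsMADS55, and the co-receptor gene OsBAK1 had r = 0.234 with OsMADS47. These shares are close to those of all probe sets for OsMADS22 and OsMADS55.

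Of the 2 measured senescence genes, 1 was associated with each member by limma. Of the 4 leaf genes, 1 was associated with OsMADS22, 1 with OsMADS55 and 0 with OsMADS47 (0 also at an unadjusted p under 0.05). NYC1 had r = -0.209 with OsMADS22, -0.275 with OsMADS55 and 0.286 with OsMADS47, and OsPORB, a chlorophyll synthesis enzyme, had -0.250 with OsMADS22 and -0.314 with OsMADS55. SGR did not pass with any member (r = 0.109, 0.104 and -0.101 with OsMADS22, OsMADS47 and OsMADS55), and neither did OsRBCS2, CAB2R or RCA. Of the floral organ genes, 4 of 14 were associated with each of OsMADS22 and OsMADS55 and 3 with OsMADS47, OsMADS3 being the highest for OsMADS47 (r = 0.405, rho = 0.415). With OsMADS22 these were 2 positive and 2 negative, with OsMADS55 1 and 3, and with OsMADS47 3 and 0. Over all probe sets, 27.1%, 23.6% and 3.85% were associated with OsMADS22, OsMADS55 and OsMADS47. The leaf and floral organ counts of OsMADS22 and OsMADS55 are near these shares. The part of leaf state in the correlations of the members was not tested.

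For each member, the named or described genes most like it over the 210 RILs were taken by Pearson r, among genes with a median of at least 6. For OsMADS22 most of these came from its own chromosome. OsHAK25, a potassium transporter gene, had r = 0.610 (rho = 0.601), OsAPRL3, of the adenosine phosphosulfate reductase-like family and 33 genes away in annotation order, r = 0.535, and OsMADS57, a further MADS-box gene, r = 0.475. OsNIP2;1, the silicon channel gene also known as Lsi1 and 96 genes away, had r = -0.610 (rho = -0.604). G-TMT, which encodes a tocopherol methyltransferase, and OsBRXL2, of the BREVIS RADIX-like family, each had 2 clusters of lines, with r of -0.293 and -0.296 and of -0.166 and -0.241 within the low and high cluster. The other 2 of the highest lie on chromosome 3 and are described as a protein with a calmodulin-binding IQ motif (LOC4333579, r = 0.479) and a transmembrane protein (LOC4333664, r = 0.473). With 5 components removed these 2 were at 0.315 and 0.310, and OsMADS57 was at 0.576.

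The position of partners was therefore looked at for all 3 genes, using the order of genes in the assembly ASM3414082v1. Lines of a cross inherit neighbouring genes together, so neighbours are described apart. Of the 100 placed genes with the largest absolute r with OsMADS22, 50 lay on its own chromosome 2, which holds 12.5% of the 12033 measured genes, and 30 of these within 300 genes of it. The window of 300 genes with the most of the 100, chosen by a search over all chromosomes, lay on chromosome 2 and had 27 of the 100 and 1.15% of the measured genes. These 27 spanned 278 genes, OsMADS22 among them. The number on chromosome 2 was 40 to 63 under the other ways of computing r.

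Among the measured genes within 10 genes of OsMADS22, 15 of 17 were associated with it by limma, with a median absolute r of 0.351, against 0.110 over all probe sets. Of all probe sets, 27.1% were associated with it. Placed genes of other chromosomes with a median of at least 6 had a median absolute r of 0.148. The neighbours went in both directions, from -0.477 for LOC4330795 to 0.547 for LOC4330802 among the 16 without clusters of lines. The next gene, LOC4330806, had 2 clusters of lines and r of 0.214 and 0.224 within them. LOC4330712, 97 genes away and beside OsNIP2;1, also had 2 clusters, of 97 lines around 9.23 and the remaining lines around 10.80, with r of -0.403 and -0.274 within them. On its parental arrays it was at 11.02, 10.77 and 11.44 in Zhenshan 97 and at 9.06, 9.19 and 9.29 in Minghui 63, the order opposite to that of OsMADS22. These 2 genes were singled out after their values were seen.

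**Figure D4:**
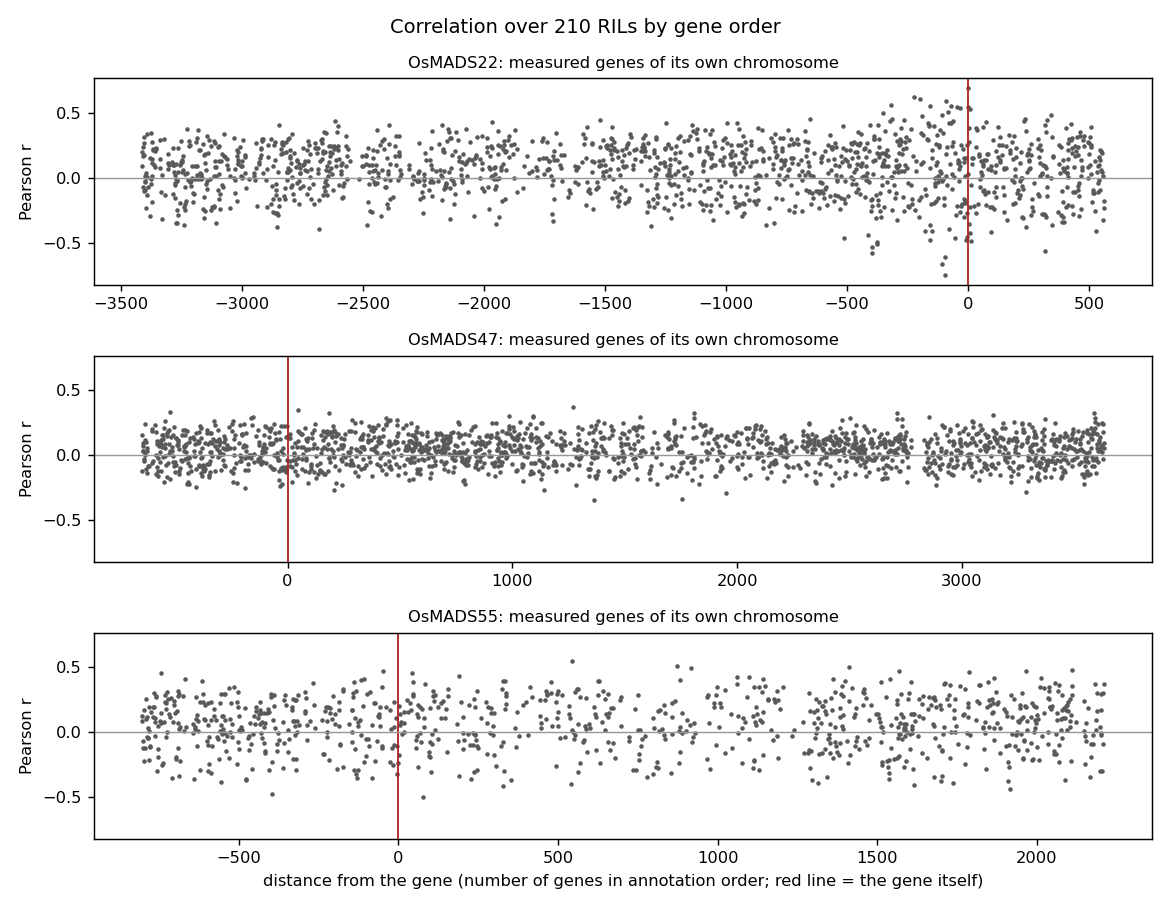
Pearson r over 210 RILs (vertical axis) of each gene with the measured genes of its own chromosome, by distance in number of genes (horizontal axis, with 0 and the red line at the gene itself), 1 point per gene. Around OsMADS22 the points widen, with OsHAK25 at 0.610 and OsNIP2;1 at -0.610, while the points beside OsMADS47 and OsMADS55 stay nearer to the spread along the rest of the chromosome.

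OsMADS47 and OsMADS55 did not have this pattern. Of the genes within 10 of OsMADS47, 1 of 13 was associated with it, with a median absolute r of 0.129 against 0.0652 over all probe sets, and of those around OsMADS55 5 of 13, with 0.110 against 0.100. The shares of all probe sets associated with OsMADS47 and OsMADS55 were 3.85% and 23.6%. Placed genes of other chromosomes with a median of at least 6 had a median absolute r of 0.0919 and 0.152, so the OsMADS55 neighbours lay below these. Of their 100 strongest partners, 11 each lay on their own chromosomes, 3 and 6, which hold 14.7% and 7.88% of the measured genes. The difference between the members in these counts was not tested.

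The strongest partners of OsMADS47 instead lay on chromosome 6, with 31 of the 100, and on chromosome 1, with 21, shares of 7.88% and 14.7% of the measured genes. The window of 300 genes found by the same search lay on chromosome 6 and had 23 of the 100 and 0.981% of the measured genes. These 23 spanned 271 genes. Hd3a lies within this stretch but is not one of them. Its r with OsMADS47 was 0.124, and the smallest absolute r among the 100 was 0.301. Of the 23, 21 were positively correlated with OsMADS47. Of the 100 strongest partners found anew under each setting, the stretch held 15 with 5 components removed and 33 with blocks of 10 lines removed, which does not say that they are the same genes. For OsMADS55 no window of 300 genes held more than 5 of the 100.

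**Figure D5:**
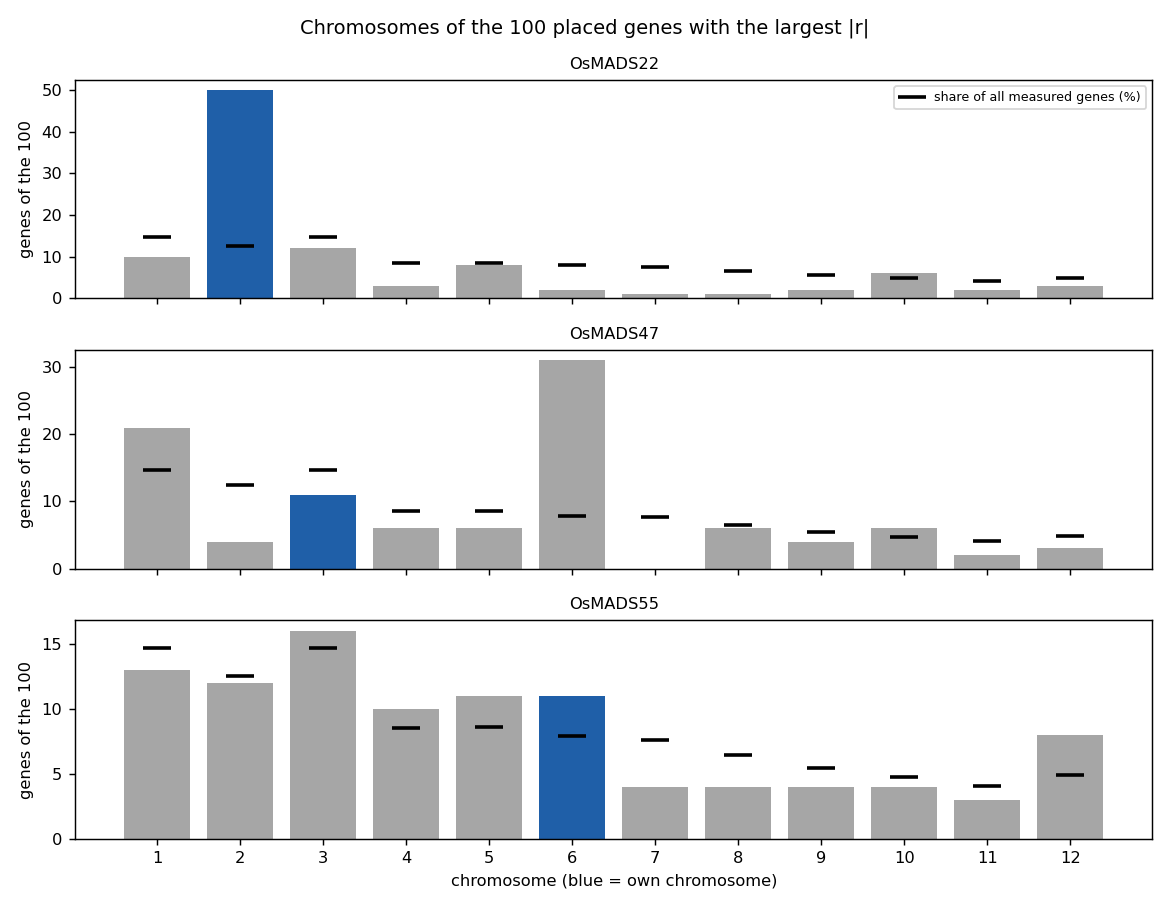
Number of genes on each chromosome (bars, the gene's own chromosome in blue) among the 100 placed genes with the largest absolute r over 210 RILs, for each of the 3 genes, with the share of all measured genes on that chromosome in percent (black marks). OsMADS22 has 50 on its own chromosome 2, OsMADS47 has 31 on chromosome 6, and OsMADS55 is spread over all chromosomes with at most 16 on one.

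The named genes most like OsMADS47 had weaker correlations than those of the other members. CCS, the copper chaperone of superoxide dismutase, had r = 0.380 (rho = 0.398), sodCp, a plastid copper/zinc superoxide dismutase gene, r = 0.375 (rho = 0.374), and the metallothionein gene OsMT-I-2b r = 0.345 (rho = 0.379). They lie on chromosomes 4, 8 and 1. A kinase-domain gene (LOC4327068) and a universal stress protein gene (LOC4327636), both on chromosome 1, had 2 clusters of lines, with r of 0.300 and 0.0743 and of 0.259 and 0.00975 within the low and high cluster. At the negative end stood OsFTL1, given above, a gene described as a lachrymatory factor synthase (LOC4327340, r = -0.357) and a probe set of OsMADS14 (r = -0.357, rho = -0.385) other than the one used above, for which r was -0.206.

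Of the 8 genes named for OsMADS55 by this rule, OsMADS18, OsARF8, OsHox6 and OsWOX13 encode transcription factors. Whether this exceeds the share among all genes open to the rule was not tested. After OsMADS18 on chromosome 7 (r = 0.578) came OsARF8, an auxin response factor, on chromosome 4 (r = 0.569), OsHox6, a homeobox leucine zipper gene, on chromosome 9 (r = 0.560), OsWOX13, a WUSCHEL-related homeobox gene, on chromosome 1 (r = 0.547), and a gene with a sec20 domain (LOC4344040) on chromosome 7 (r = 0.538). With 5 components removed these were at 0.569, 0.457, 0.422, 0.413 and 0.376. The lowest values were with an amino acid transporter gene 76 genes away (LOC4340559, r = -0.498), OsNIP2;1 (r = -0.497), which was also among the lowest for OsMADS22, and a peptidase of the M24 family (LOC4350667, r = -0.482).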

How the data were processed

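Total RNA of flag leaves was hybridized to Affymetrix rice arrays, and the authors made the deposited log2 expression values with RMA and the affy package, of unstated version. No value was renormalized, and 123 control probe sets were left out. The number of arrays limits the precision. Parents, RILs against parents, and associations were fitted in R 4.3.3 by lmFit and trended eBayes of limma 3.58.1 over all 57258 probe sets with Benjamini-Hochberg adjustment. Correlations used numpy 2.4.6 and scipy 1.17.1 in Python 3.11.15, with two-sided permutation p from 100000 resamples. Clusters of lines were taken from a normal mixture (scikit-learn 1.9.0) that preferred 2 components by BIC, with 6 or more lines in either and an Ashman's D above 2. Genes were named from the platform's gene table (22436 probe sets with 1 gene, 95 with several) and from the study where that names a probe set. The members and lists were chosen with earlier results of these data known. Named genes were the 3 members, list genes past the parental threshold (at most 4 a list by smallest p), 14 flowering genes, and per member the 5 highest and 3 lowest r among genes with a name or description and a median of at least 6 over the RILs. Of several probe sets of a gene, the one the study names was used, else the one of highest mean. Genes beyond this rule, from the wider lists, neighbours and unnamed probe sets, were picked with their values in view. Routines were tested on simulated data. Alternatives were the variance trend, a robust variance prior (chosen after seeing the data), quantile normalization, leaving out dim probe sets, the replicate block, arrays left out, rank correlation, removal of 5 principal components, of blocks of 10 lines or of the 3'/5' differences, and other limits for the parents. eQTL mapping and present calls were not repeated.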

Additional observations from a re-analysis of the deposited data

How the results depend on the processing

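With each parental array left out in turn, the number of probe sets past the parental test lay between 1545 and 3417 (3043 with all), the difference of OsMADS22 between 0.60 and 0.79, of OsMADS55 between 1.12 and 1.71, and of OsMADS47 between -0.95 and 0.14. For the RILs against the parents the number lay between 2426 and 4393 (4286 with all), OsMADS47 between -0.71 and -0.16 and OsMADS55 between 0.16 and 0.46. With the replicate number as a block, the differences stayed at 0.71 for OsMADS22 and 1.36 for OsMADS55 and the calls were lost (adjusted p = 0.0577 and 0.0609 by limma), with 2309 probe sets called. The labels do not say whether same-numbered arrays of the parents belong together. Deviations of same-numbered arrays from the parental means correlated at -0.20, -0.26 and -0.07. No positive link was seen, but this does not settle whether the arrays were paired. A robust variance prior, chosen after seeing the data, kept both calls, and OsMADS15 lost its own (adjusted p = 0.0861). Against parental means in place of arrays, 2.38% of the lines were above and 77.6% below for OsMADS47, and 6.67% above and 1.90% below for OsMADS55. Without Zhenshan 97 replicate 3 as a limit, chosen after seeing the data, 11% were above for OsMADS47.

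With 5 components as covariates, 601, 306 and 3829 probe sets were associated with OsMADS22, OsMADS47 and OsMADS55, against 15499, 2206 and 13513 without. Of the 30 pairs of members and flowering genes without clusters, 16 passed as deposited, 4 with 5 components removed, and 14 to 18 under the other settings. With these components removed the sign turned for OsMADS22 with OsMADS50 (-0.0547), OsMADS56 (-0.104), OsMADS15 (-0.00112) and OsPRR1 (0.105), for OsMADS47 with OsPRR1 (-0.107) and OsGI (0.00585), and for OsMADS55 with OsMADS56 (-0.164), OsPRR1 (0.0149) and OsGI (-0.016). With the 3'/5' differences removed it turned for OsMADS22 and OsMADS47 with OsMADS56 (-0.0117 and -0.00286) and for OsMADS55 with OsGI (-0.0609). OsMADS47 with OsMADS55 passed as Spearman (-0.168) and without the 2 extreme lines (-0.182). For OsMADS47, 2 of the 100 strongest partners lay on its chromosome with 5 components removed (median absolute r of its neighbours 0.0654) and 4 with blocks of 10 lines removed. For OsMADS55 these numbers were 6 and 6, and its neighbours' median was 0.0731 with the 3'/5' differences removed. The causes were not tested. Of 120 recomputed correlations of the genes most alike, 110 stayed within their 95% interval, and 10 moved beyond it, all with 5 components removed. No second probe set of a member could be tried.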
